A study of Mus musculus with 4 samples.

Results

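Open chromatin was described at 7 mouse genes of the osteoblast lineage: the regulators Sp7, Atf4 and Pth1r, the matrix products Sparc, Bglap and Bglap2, and the osteocyte product Sost. A region was given to the gene whose protein-coding transcription start site (TSS) lay nearest to its midpoint, and regions overlapping 1 kb either side of a TSS of the gene were added as its promoter regions. By this rule, 47 of the 121574 regions belonged to the 7 genes, out of 21827 protein-coding genes. Of the 47 regions, 16 belonged to the regulators and 31 to the products.

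ATAC-seq, in which a transposase inserts adapters into accessible DNA, was run on incisor dental mesenchyme of wild-type C57BL/6 mice at 4 weeks of age, with no treatment. The 4 samples were lanes 1 to 4 of a single group and stood under 1 name in the tables, so the data were treated as 1 library. There was no replicate error, and no test between conditions was possible. How many animals gave the cells, and whether they were pooled, the labels used here do not say.

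Bone-forming osteoblasts and dentin-forming odontoblasts are related secretory cells that lay down a collagen matrix and mineralize it. Sp7 (osterix) is a zinc-finger transcription factor that acts downstream of Runx2 and is required for osteoblast formation. Atf4 is a bZIP factor of the integrated stress response that also binds the osteocalcin promoter, and Pth1r is the G-protein-coupled receptor for parathyroid hormone and its related peptide, which is needed for tooth eruption. Sparc (osteonectin) is a collagen-binding matrix glycoprotein, Bglap and Bglap2 are adjacent genes for osteocalcin, a vitamin K-dependent matrix protein, and Sost encodes sclerostin, a Wnt antagonist that osteocytes secrete.

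Sequences are shown for the promoters of Pth1r, Bglap and Sparc, because their start sites lay in or beside regions with reads. The 3 regions away from promoters with the most reads, at Sp7 and Pth1r, are shown because they were the deepest of the 7 genes' regions there. Promoters come from RefSeq on GRCm38 (mm10) and run from 250 bases before to 50 after the start site. The others are the central 300 bases of a region, read from the same genome. All lie on the minus strand, as the genes do, and are written 5′ to 3′. Capitals mark matches on either strand to a RUNX site (TGTGGT, or ACCACA on the other strand), a GC box (GGGCGG or CCGCCC) or a TATA box (TATAAA or TTTATA).
Pth1r promoter, chr9:110743637-110743936: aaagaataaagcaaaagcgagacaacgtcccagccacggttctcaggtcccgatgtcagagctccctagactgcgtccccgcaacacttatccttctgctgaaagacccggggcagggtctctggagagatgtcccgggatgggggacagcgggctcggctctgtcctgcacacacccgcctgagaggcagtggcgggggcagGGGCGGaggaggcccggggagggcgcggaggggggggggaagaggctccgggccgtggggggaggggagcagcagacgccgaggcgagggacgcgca
Bglap promoter, chr3:88384417-88384716: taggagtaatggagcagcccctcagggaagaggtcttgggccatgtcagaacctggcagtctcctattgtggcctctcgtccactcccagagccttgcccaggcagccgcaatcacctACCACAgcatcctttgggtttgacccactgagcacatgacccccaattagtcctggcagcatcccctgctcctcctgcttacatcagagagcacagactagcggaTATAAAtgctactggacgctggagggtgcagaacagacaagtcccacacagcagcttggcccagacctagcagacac
Sparc promoter, chr11:55420031-55420330: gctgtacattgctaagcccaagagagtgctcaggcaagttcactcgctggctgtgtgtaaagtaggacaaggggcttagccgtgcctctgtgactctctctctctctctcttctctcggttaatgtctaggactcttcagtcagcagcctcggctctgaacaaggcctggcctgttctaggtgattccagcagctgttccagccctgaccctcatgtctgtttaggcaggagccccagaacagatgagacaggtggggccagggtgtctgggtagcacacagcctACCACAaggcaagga
Sp7 upstream region, 10.2 kb before the start site, chr15:102376990-102377289: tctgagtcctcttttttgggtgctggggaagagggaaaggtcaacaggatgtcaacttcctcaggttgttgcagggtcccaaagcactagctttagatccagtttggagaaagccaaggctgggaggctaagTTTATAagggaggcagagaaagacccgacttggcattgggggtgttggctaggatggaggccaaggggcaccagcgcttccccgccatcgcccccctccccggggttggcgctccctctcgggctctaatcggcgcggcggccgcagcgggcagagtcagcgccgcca
Sp7 upstream region, 3.9 kb before the start site, chr15:102370759-102371058: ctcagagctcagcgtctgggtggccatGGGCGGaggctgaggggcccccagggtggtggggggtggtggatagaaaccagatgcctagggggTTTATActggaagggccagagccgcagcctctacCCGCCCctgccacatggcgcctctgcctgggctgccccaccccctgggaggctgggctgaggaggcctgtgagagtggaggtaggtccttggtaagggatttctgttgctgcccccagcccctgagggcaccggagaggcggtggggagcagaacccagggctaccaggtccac
Pth1r intronic region, 9.9 kb after the start site, chr9:110732710-110733009: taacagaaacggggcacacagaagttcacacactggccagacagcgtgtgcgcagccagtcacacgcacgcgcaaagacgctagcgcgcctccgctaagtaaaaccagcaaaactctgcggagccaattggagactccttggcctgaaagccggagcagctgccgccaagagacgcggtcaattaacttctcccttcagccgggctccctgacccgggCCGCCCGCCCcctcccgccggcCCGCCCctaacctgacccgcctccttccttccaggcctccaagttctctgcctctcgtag

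The library held 2297894 reads in regions, 11.1% of the divisor that its values imply. A region had a median of 7 reads, with quartiles of 3 and 16, and promoter regions had a median of 14 against 6 elsewhere. Intervals are exact 95% Poisson intervals for reads and exact Clopper-Pearson intervals for shares. They cover counting error only and take each read as independent, which PCR copies would not be. All 7 dental mesenchyme markers had a region and 6 had one at a promoter, from 547 reads at Msx1 to 69 at Barx1. All 4 odontoblast markers had both, from 997 at Klf4 to 44 at Dspp. Of all protein-coding genes, 77.0% had a region and 64.6% had one at a promoter. Markers of other cells also held reads. The 4 dental epithelium genes held 311 reads in all, with promoter regions at 2 of them (Ambn and Krt14). The leukocyte list held 593, of which Ptprc had 591, with no promoter region and no region at all at Cd68. The endothelial list held 1085, of which Cdh5 had 1032, with promoter regions at 2 of 3 genes. The 3 skeletal muscle genes held 26, with none at a promoter. Summed reads depend on how much sequence lies nearest to a gene, 692 kb at Cdh5, 657 kb at Ptprc and 695 kb at Klf4. The dental mesenchyme list had a median of 129 kb, and all genes with a region 56.4 kb. The part of these other cells in the values below was not tested. In a bulk sample, an open site in few cells and a less open site in many cannot be told apart.

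Of the 7 genes, 6 had regions, where 77.0% of all protein-coding genes had one, and 5 had promoter regions, where 64.6% did. Both counts are near those shares. Atf4 lies in a stretch without rows, and the rest of this paragraph covers the other 6 genes. Sparc held the most reads, followed by Pth1r and Sp7. The osteocalcin genes and Sost held far fewer. Sparc, Pth1r and Sp7 were above the median of 85 reads for a gene with a region, that is 3 of 6. Of all genes, also those without a region, 38.4% were. The 6 genes all have a region, and 3 of 6 is what genes with a region give, since the median divides those. Neighbours in the order Sparc, Pth1r, Sp7, Bglap, Bglap2, Sost had overlapping intervals in 2 cases, Pth1r with Sp7 and Bglap with Bglap2.

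**Figure D1:**
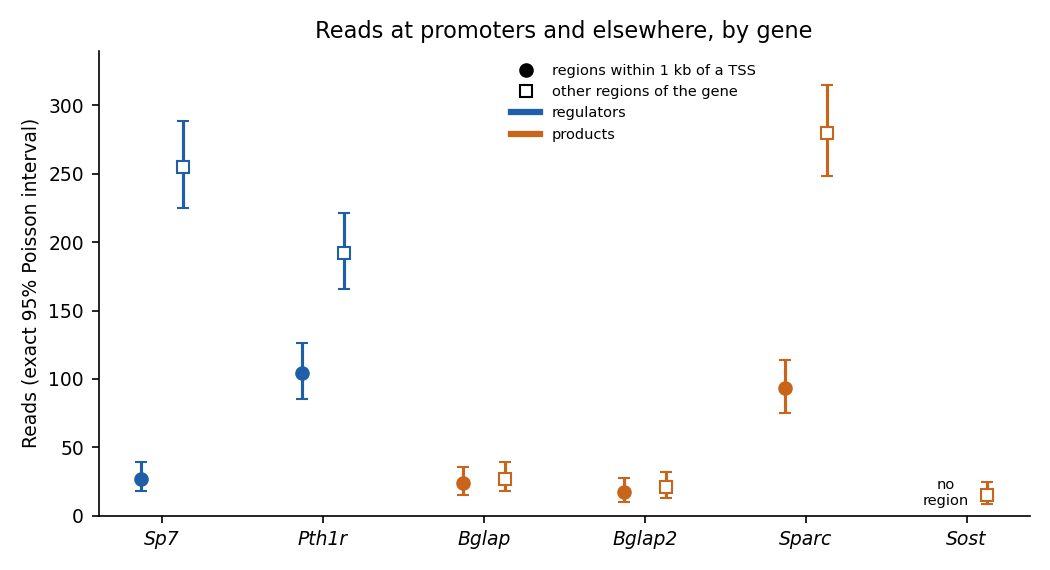
Reads in regions within 1 kb of a TSS (filled circles) and in the other regions of each gene (open squares), with exact 95% Poisson intervals, for regulators (blue) and products (orange) in 1 library. Away from promoters, Sparc (280), Sp7 (255) and Pth1r (192) stand far above Bglap (27), Bglap2 (21) and Sost (15). Atf4 has no region and is not drawn.

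Among coding genes, Sp7 is the nearest to a run of deep upstream regions, and most of its reads lay there. It held 282 reads (95% interval 250.04 to 317) in 8 regions, more than 87.8% of genes with a region. Its 2 promoter regions held 27 of them (17.8 to 39.3), which is fewer than the median of 67 for genes with a promoter region. The promoter share was 9.57% (6.40 to 13.6), against a median of 56.6% over all genes with reads whose promoter regions held no more than their total. That share rests on the rule that only coding genes compete for regions. When start sites of any gene counted, an alternative for this share that was chosen after the data were seen, Sp7 kept 44 reads and the share was 61.4% (45.5 to 75.6), above the 35.1% that Pth1r had under both rules. The region of 21 reads at chr15:102366397-102366919 contained the start site at 102366513 and ended 49 bases short of the one at 102366968. The other promoter region, in the intron 0.82 kb downstream, had 6 reads.

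Of the 282 reads, 238 lay in 5 upstream intergenic regions. All 5 are nearer to the start site of Gm23590, a small nuclear RNA gene, than to that of Sp7, so they belong to Sp7 only as the nearest coding gene. The region at chr15:102376646-102377634, 10.2 kb before the start site, had 127 reads (106 to 151), the most of its 8 regions. That exceeded 99.7% of all regions outside promoters. The region abutting it, further upstream, had 31 reads, and the one at chr15:102370681-102371137, 3.9 kb upstream, had 63 (48.4 to 80.6), above 98.1% of regions outside promoters. The intervals of both deep upstream regions lay above that of the promoter region of 21 reads (up to 32.1). An intronic region 3.6 kb downstream had 17 reads and the most distant upstream one, at 14.8 kb, had 16. In the 2 leading sequences printed above, the one at 10.2 kb held 1 TATAAA match and the one at 3.9 kb held 1 TATAAA and 2 GC box matches. TATAAA is in the central 300 bases of 12.9% of all regions outside promoters, and a GC box in that of 9.44%.

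Pth1r, the hormone receptor, combined promoter reads above those of the median gene with a strong intronic region. It held 296 reads (263 to 332) in 8 regions, more than 88.9% of genes with a region. Promoter regions accounted for 104 reads (85.0 to 126), or 35.1% (29.7 to 40.9). The deepest region, chr9:110732561-110733160, lay in an intron 9.9 kb downstream and had 113 reads (93.1 to 136), 38.2% of the gene's total and above 99.5% of regions outside promoters. Its centre, printed above, held 3 GC box matches, of which 2 overlap. With Sp7, Pth1r was 1 of 2 among the 7 genes with a region of at least 100 reads away from promoters, which 2.60% of all protein-coding genes had. That limit was chosen after the values were seen, and with start sites of any gene Pth1r alone of the 7 had such a region.

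Pth1r has 3 annotated coding start sites, and the reads lay at the inner 2. The sites at 110742719 and 110743686 shared the same 104 reads within 1 kb, from a region of 57 reads at chr9:110742731-110744144 and another of 47 reads at chr9:110742241-110742730 over an untranslated exon. A region with 0 reads lay within 1 kb of the first of these sites. The most upstream site, at 110747122, had no region within 1 kb, and the nearest lay 2978 bp away. The RefSeq promoters at 110743686 and 110742610 held 23 and 27 CG pairs in 300 bases, against 5 at the upstream site and a median of 7 over 32851 RefSeq promoters. The gene Myl3, which encodes a muscle myosin light chain, runs across these promoter regions on the other strand, and had no region within 1 kb of its own coding start site. A further Pth1r region of 54 reads, 32.8 kb downstream, lay in an intron of the neighbouring Ccdc12 and was given to Pth1r by distance alone.

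Atf4 had no region, and its level could not be given. No row of the table fell between positions 80174488 and 80407965 on chromosome 15, a stretch of 233 kb that holds 5 coding genes, Atf4, Mief1, Rps19bp1, Cacna1i and AC140267.1. The median gap between neighbouring regions was 6.65 kb, and 99.1% of gaps were shorter than this one. The regions on either side had 4 reads each. Among genes whose RefSeq promoter holds at least 20 CG pairs, 95.1% had a promoter region, and the Atf4 promoter holds 22. Atf4 is therefore treated as not analysed here, not as closed, and adds nothing to the sums below.

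**Figure D2:**
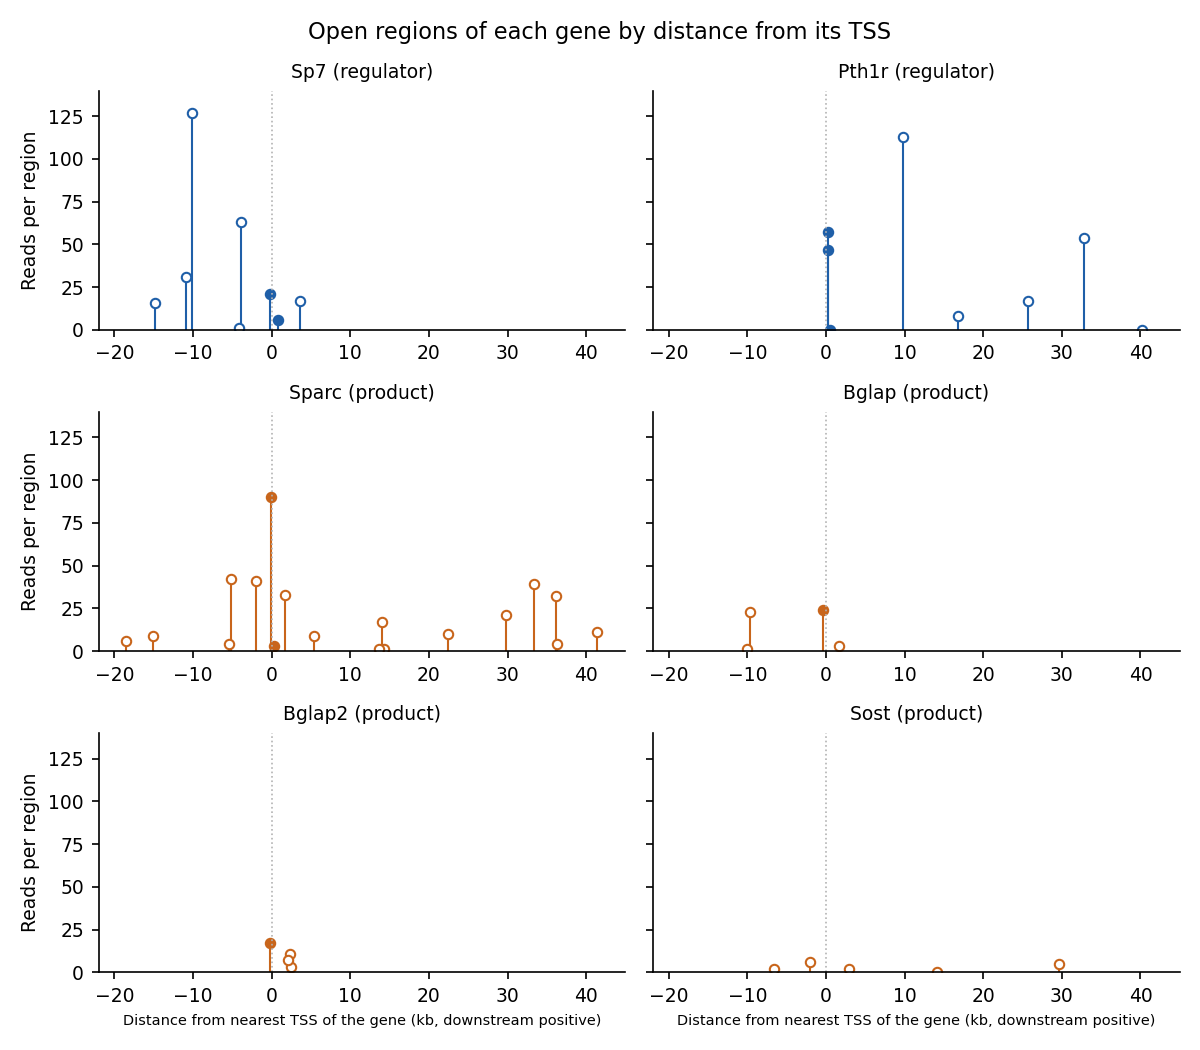
Reads of each of the 47 regions against the distance of its midpoint from the nearest TSS of the gene (kb, downstream positive), for the 6 genes with a region; filled circles are promoter regions. The tallest points of Sp7 (127) and Pth1r (113) lie about 10 kb from the start site, upstream in Sp7 and downstream in Pth1r, while that of Sparc (90) lies at the start site.

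Sparc had the most summed reads of the products, and they were spread over many regions. It held 373 reads (336 to 413) in 18 regions, more than 92.9% of genes with a region. The 2 promoter regions held 93 reads (75.1 to 114), or 24.9% (20.6 to 29.6). Of these, 90 (72.4 to 111) lay in the region at chr11:55419648-55420286, over an untranslated exon, which was deeper than 82.2% of promoter regions. This region contains or lies within 39 bases of 4 of the 5 Sparc start sites. The site furthest upstream, at 55423183, had no region within 1 kb.

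The other 280 Sparc reads (248 to 315) came from 16 regions, none above 42 reads. The deepest were 42 reads at chr11:55428143-55428520, 5.1 kb upstream, 41 at chr11:55425019-55425379, 2.0 kb upstream, and 39 at chr11:55386438-55386745, 33.3 kb downstream of the start site and beyond the gene's 3′ end. These 3 exceeded 95.1% to 95.7% of regions outside promoters, and all were intergenic. An intronic region 1.7 kb downstream had 33 reads and lay just outside the promoter window. Of the 18 regions, 8 had under 10 reads. Sparc thus had more reads outside its promoter than Pth1r, whose interval there was 166 to 221, without a single region of 100 reads.

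The osteocalcin genes were covered thinly. Bglap held 51 reads (38.0 to 67.1) in 4 regions and Bglap2 held 38 (26.9 to 52.2) in 4, more than 34.2% and 27.2% of genes with a region. Their promoter regions were 24 reads (15.4 to 35.7) at chr3:88384442-88385106 and 17 (9.90 to 27.2) at chr3:88378735-88379168. Outside the promoter, Bglap had 23 reads at chr3:88393875-88394326, 9.7 kb upstream, and Bglap2 had 11, 7 and 3 in a run of abutting regions over the pseudogene Gm21956. Promoter shares were 47.1% (32.9 to 61.5) and 44.7% (28.6 to 61.7), both with intervals that include the median gene's 56.6%. Those of Sp7, Pth1r and Sparc lay below it. With start sites of any gene, the 21 Bglap2 reads over the pseudogene left it, and its share was 100% of 17 reads.

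The copies are alike enough that reads between them are uncertain. Over the 964 bases of each gene, Bglap and Bglap2 were identical at 939 (97.4%), and the 1 kb before each gene was 97.0% identical. Of all 75-base stretches, the length of a read, 78.2% were unique in the genome in the Bglap promoter region and 79.7% in that of Bglap2. The lowest share was 28.5%, in a Bglap region of 3 reads over the pseudogene Gm6821, and the region 9.7 kb upstream was unique throughout. Regions of Sp7, Pth1r, Sparc and Sost were unique at every 75-base stretch. No label or header used here says how reads with several matches were treated. The third copy, Bglap3, had 15 reads in 1 region and none at its promoter.

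Sost, made by osteocytes, had the fewest reads of the 6 genes. Its 5 regions held 6, 5, 2, 2 and 0 reads, 15 in all (8.40 to 24.7), more than 12.5% of genes with a region. None lay within 1 kb of the start site at 101967015 on chromosome 11. The closest, of 6 reads, was 1926 bp away. A region missing from the table was not called, which is not a count of 0 reads.

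Promoter reads can be set beside the CG content of the promoter, since promoters rich in CG pairs are open in most cells. The Sparc and Bglap promoters each held 4 CG pairs in 300 bases. Among genes with 0 to 4, 13.5% had a promoter region, with a median of 17 promoter reads. Sparc had 93 (75.1 to 114), above that median, and Bglap 24 (15.4 to 35.7), with an interval that includes it. Sost held 7, and 50.5% of genes with 5 to 9 had a promoter region. Pth1r's 104 reads stood against a median of 91 for genes with at least 20. Of the 7 genes, 5 had an entry in the RefSeq promoter table (not Sp7 and Bglap2).

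In the Bglap promoter printed above, a RUNX match began 132 bases before the RefSeq start site, on the opposite strand, and TATAAA began 27 bases before it. A RUNX match began 35 bases after the Sparc start site, and 1 GC box match lay 47 bases before that of Pth1r. Of all RefSeq promoters, 16.8% hold a RUNX match, 13.6% TATAAA and 35.7% a GC box. Among the 19 regions of at least 10 reads outside promoters, RUNX matches were found in the central 300 bases of 4 (21.1%), against 25.4% of all 96530 regions outside promoters, whatever their depth. GC boxes were in 3 (15.8%) against 9.44%, AP-1 sites (TGANTCA) in 3 (15.8%) against 11.1%, E-boxes (CANNTG) in 15 (78.9%) against 80.5%, and TATAAA in 2 (10.5%) against 12.9%. Homeodomain sites (TAATTA), cAMP response elements (TGACGTCA), the ATF4 composite site (TGATGCAA) and the MEF2 site were in none, against 13.9%, 0.317%, 0.886% and 0.974%. The 6 promoter regions of that depth were also searched in their central 300 bases. Of these, 2 (33.3%) held a RUNX match there, at Sparc and Bglap2, against 11.8% of all 25044 promoter regions. GC boxes were in 2 (33.3%) against 54.8%, and E-boxes in 5 (83.3%) against 63.1%. The sequence TGACG, which starts the cAMP response element, was in 1 (16.7%) against 24.5%. AP-1, TATAAA, homeodomain, cAMP response element, ATF4 composite and MEF2 sites were in none of these centres, against 4.32%, 4.20%, 2.07%, 1.64%, 0.415% and 0.248%. The RUNX and TATAAA matches of the printed Bglap promoter lay inside its promoter region but outside that region's centre, so they were not counted. Whether these shares differ from those of all promoter regions was not tested. A match describes the letters and not a bound site.

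Set against each other, the regulators and the products held sums of similar size. The 2 regulators with regions held 578 reads and the 4 products 477, so that the regulators' share was 54.8% (51.7 to 57.8). At promoters the sums were 131 and 134, a share of 49.4% (43.3 to 55.6), and elsewhere 447 and 343, a share of 56.6% (53.0 to 60.1). Sost, with no promoter region called, added nothing to the promoter sum. Per gene, the regulators lay close together, at 282 and 296, while the products ran from 15 to 373 with a median of 44.5. Sparc alone held most of the products' reads: without it the regulators' share was 84.8%, and 76.2% at promoters. Without Pth1r it was 37.2% and 16.8%, and without Sp7 38.3% and 43.7%. When noncoding genes could take the nearest regions, the 238 upstream reads left Sp7 and the share was 43.3%. With so few genes, the direction of the contrast thus depended on single members.

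Per length the order changed. Relative to the sequence that lies nearest to each gene's start sites, Sp7 had 1007 reads per 100 kb, Bglap2 650.1, Sparc 583, Pth1r 531, Bglap 323 and Sost 33.7, against a median of 127 over genes with a region. Bglap2, with 5.85 kb of such sequence, and Bglap, with 15.8 kb, thus lay above the median gene on this scale and below it in summed reads. Sost lay below it on both, with 17.4% of genes lower per 100 kb. The order per 100 kb carries the counting error of the reads, 26.9 to 52.2 for the 38 of Bglap2. It also rests on the rule that only coding genes compete for regions. With start sites of any gene, Sp7 kept 44 of its 282 reads and Bglap2 17 of its 38. Per kb of called region, Sp7 had 85.6 reads, Pth1r 71.6, Sparc 70.4, Bglap2 32.0, Bglap 31.1 and Sost 13.7, against a median of 48.8. On that scale the upper 3 and the lower 3 genes were those of the summed reads.

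**Figure D3:**
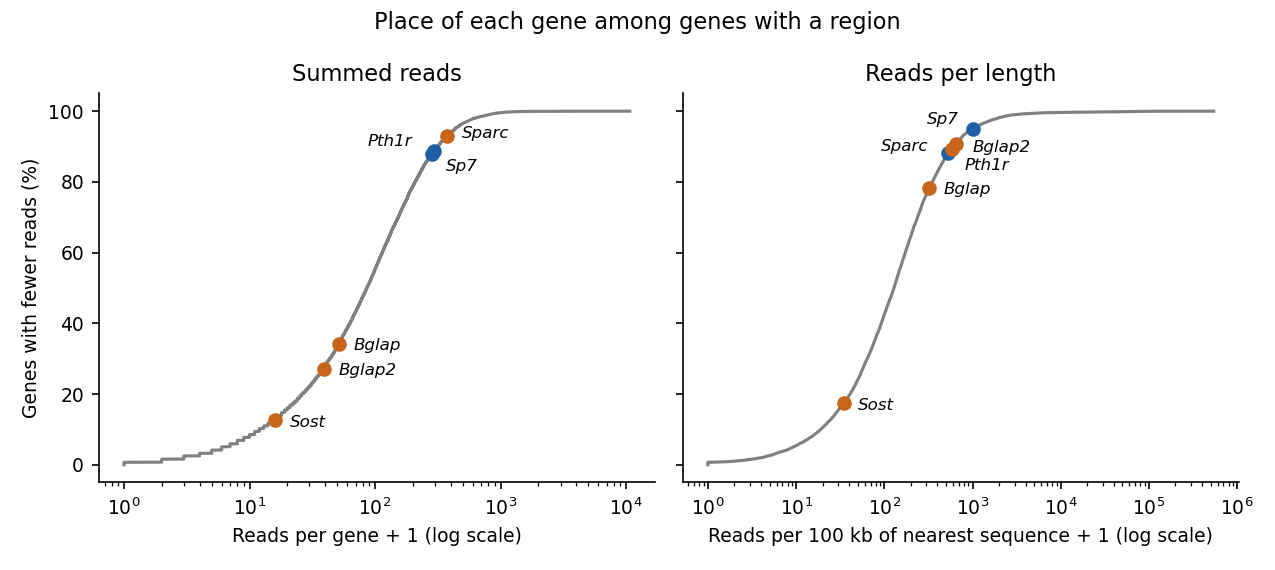
Share of the 16816 genes with a region that have fewer reads (y axis, %) against summed reads (left) and reads per 100 kb of nearest sequence (right), each plus 1 on a log axis; the line is all genes, and points are regulators (blue) and products (orange). Bglap2 moves from 27.2% on the left to 90.8% on the right and Bglap from 34.2% to 78.3%, while Sost stays low, at 12.5% and 17.4%.

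The genes that work with the members were read in the same way, and the counts below stand beside 77.0% of all coding genes with a region, 64.6% with a promoter region and 38.4% with reads above the median. Summed reads also depend on how much sequence lies nearest to a gene, which had a median of 56.4 kb over all genes with a region. All 11 osteoblast transcription factors had a region, a promoter region and reads above the median gene, from 1061 at Msx2 to 149 at Vdr, the vitamin D receptor, with a median of 397. Sp7, at 282, lay below that median, but 28.0 kb of sequence lies nearest to it, where the list's median was 339 kb. Of the 14 genes of the PTH receptor pathway, 13 had a region, 12 a promoter region and 11 reads above the median, from 668 at Hdac4, a histone deacetylase, to 37 at Pth2r, with a median of 200 and a median span of 131 kb. The hormone's own gene, Pth, had no region. Pth1r, at 296, lay above the list's median.

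All 13 genes of the eIF2alpha-ATF4 stress response, the kinases and targets around Atf4, had a region at a promoter, and 7 had reads above the median gene. They ran from 365 at Eif2ak3, the kinase PERK, to 16 at Atf5, with a median of 108 and a median span of 43.7 kb. The count of 7 of 13 is near what genes with a region give, since the median divides those. The regions at the Atf5 promoter held 245 reads, most of which the nearest-site rule gave to a neighbour. These values come from genes other than Atf4 and give no level for it.

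On the side of the products, all 10 bone matrix and mineral genes had a region, 8 a promoter region and 5 reads above the median gene. They ran from 565 at Col1a2, a chain of type I collagen, to 15 at Bglap3, and their median of 85 equalled that of all genes with a region, with a median span of 54.0 kb. Sparc lay between Col1a2 and the collagen gene Col1a1, at 367, while Bglap and Bglap2 lay in the lower part of the list. All 7 osteocyte genes had a region and 5 had one at a promoter, from 205 at Sostdc1, a relative of Sost, to 64 at Fgf23, a phosphate-regulating hormone, with a median of 95. Of these 7, 5 had reads above the median gene. Sost, at 15, held fewer reads than any of the 7, but 44.6 kb of sequence lies nearest to it, where the list's median was 68.0 kb. The co-receptors that sclerostin binds, Lrp4, Lrp5 and Lrp6, held 123, 219 and 203 reads, each with a promoter region. All 3 lay above the median gene, with a median span of 66.3 kb.

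**Figure D4:**
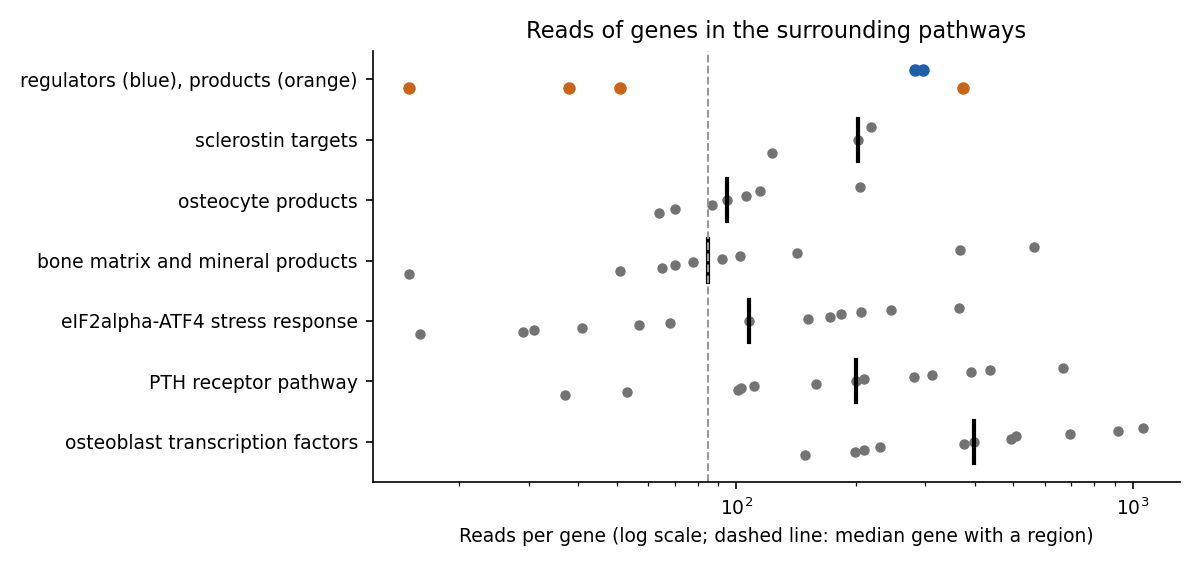
Reads per gene (log axis) for the regulators (blue) and products (orange) in the top row and for 6 lists of related genes below (grey points, 1 per gene; black bars are list medians); the dashed line is the median gene with a region, at 85 reads. Every osteoblast transcription factor lies right of the line, while bone matrix genes fall on both sides and 3 of the 4 products lie left of it.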

How the data were processed

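Chromatin accessibility was measured in 1 library, sequenced over 4 lanes. Per the labels' protocols, BWA-MEM placed the reads on mm10, MACS2 called the peaks and HOMER annotated them. STAR 2.6.1d and Partek stand in the submitters' processing notes, with no role stated. Read shifting and the removal of duplicate or mitochondrial reads are not given in the sources used here, and copies left in would raise counts. The authors deposited regions with values in CPM, to which 1 read had been added. Of these, 99.9% were whole multiples of the smallest (tolerance 0.01 read, 84 exceptions), so reads were that multiple minus 1. The authors also deposited expected counts, which equalled the recovered reads in all 7349 chromosome 11 regions (tolerance 0.02). The table's 1 value column with no sample was not used.

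Regions were assigned on the GENCODE vM21 basic annotation with Python 3.11.15, numpy 2.4.6, pandas 2.3.3 and scipy 1.17.1, and gene copies were aligned with biopython 1.88. Scripts were tested on simulated data. A gene's total covers its assigned regions, and promoter reads come from every region within 1 kb of any of its coding TSSs, also from regions that went to a neighbour. Reads elsewhere come from assigned regions outside promoters. Named are all 7 members, their promoter regions and their 3 deepest regions, the highest and lowest gene of each list, and neighbouring genes. A few more regions, Col1a1, Ambn, Krt14 and Cd68 were named after their values were seen. The members and lists were chosen with earlier results of these data known. With 1 library, no test or likeness across samples was computed.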

Additional observations from a re-analysis of the deposited data

How the results depend on the processing

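The regulators' share of the 7 genes' reads, 54.8%, was recomputed under 15 alternatives and moved beyond its interval under 7. It was 43.3% when regions went to the nearest start site of any gene, 65.3% per 100 kb of nearest sequence and 60.1% per kb of region. Without Bglap and Bglap2 together it was 59.8%, without Pth1r 37.2%, without Sp7 38.3% and without Sparc 84.8%. The share of promoter reads, 49.4%, moved under 6 of 13. It was 36.9% with a window of 2 kb and 40.3% per kb of promoter region. With the 2 kb window, Sparc rose from 93 to 167 reads and Sost, without a region within 1 kb, had 6. It was 0% with the first RefSeq start site alone, since Sp7 is not in that table and the first Pth1r site has no region. Without Bglap and Bglap2 it was 58.5%, without Pth1r 16.8% and without Sparc 76.2%.

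The totals of single genes moved beyond their intervals in 5 of 26 cases. With start sites of any gene, Sp7 had 44 reads (and a promoter share of 61.4% in place of 9.57%), Bglap2 17 and Sost 8, and without regions under 10 reads Sparc had 336 and Sost 0. Leaving out each lane was not run, because the tables do not hold lanes separately. No paired analysis was possible because there is 1 group. Of the 47 regions, 22 had under 10 reads, where counting error alone is wide, and differences among the Sost regions were not detectable at this depth.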

Other observations

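The deepest region beside Sp7 was not counted for it. At chr15:102355501-102356352, 0.68 kb past the 3′ end of Sp7 and 10.6 kb from its start site, an intergenic region had 140 reads (118 to 165), more than any of the 47 regions. The nearest coding start site is that of Aaas, a nuclear pore gene, which had 55 reads at its own promoter. On the other side, the promoter of Sp1, a ubiquitous zinc-finger factor, had 485 reads (443 to 530), against 27 for Sp7.

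The intergenic sequence beyond Sost is known for a distal bone enhancer of that gene. In the 89.1 kb between the start sites of Meox1 and Dusp3, which includes Sost, 10 regions held 42 reads, and none had more than 10. The deepest lay 65.5 kb from the Sost start site and nearest to Meox1. The Dusp3 promoter had 23 reads, and Meox1 had no region at its own.

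Promoters next to the other products also differed in depth. Atox1, a copper chaperone next to Sparc, had 163 promoter reads and Fat2, on the other side, 9. Pmf1, next to Bglap, had 65.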
